A study of Arabidopsis thaliana with 4 samples.

Results

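A set of 24 nuclear genes was higher in cores 3 and 4 than in cores 1 and 2, among 4 libraries from the rosette cores of Arabidopsis thaliana. The set was chosen by these counts themselves: of 26516 nuclear loci with 1 transcript model, 10291 had a mean of at least 10 CPM (the count divided by the library's total over these loci and multiplied by 1000000). Loci were kept where the lower of cores 3 and 4 was at least 2 times the higher of cores 1 and 2. The 24 loci are 0.233% of the 10291, and the mirror rule, with cores 1 and 2 at least 2-fold higher, gave 104 loci or 1.01%. Since the rule used all 4 libraries, every difference between the cores below is a description, given without a test.

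All 4 libraries belong to 1 group in the labels: untreated plants of the ecotype Col-0, 31 day old, grown at 22 °C in photoperiods of 16 h at 100 µE per m2 and s after a cold treatment of the seeds at 4 °C. The tissue was the middle 1.5 to 2 cm of the rosette, which holds the shoot apex and young leaf bases. The labels give no batch, do not set cores 3 and 4 apart from cores 1 and 2 and do not say whether the cores came from separate plants, so differences between them may be technical. In such bulk tissue, fewer cells of a type and less RNA per cell cannot be told apart.

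Plants detect pathogens with receptors at the cell surface, among them receptor-like kinases and receptor-like proteins, and with nucleotide-binding resistance proteins inside the cell. Both kinds of detection feed into the hormone salicylic acid, whose best-known output is the secreted pathogenesis-related protein PR1. WRKY transcription factors, which bind the W-box, act in this response. Several of the 24 genes are placed at one of these steps by product name, gene family or known role. The others are enzymes, transporters, a DNA repair gene, genes that the annotation leaves uncharacterized and 2 pseudogenes. No member is annotated as a transcription factor.

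The promoters of 6 members are shown because they hold, or in the last case lack, the W-box core. They belong to 5 members linked to immunity by product name, family or known role, and to the member with the largest ratio. Each is the 250 bases before the start in the RefSeq annotation of TAIR10.1, written 5′ to 3′ on the strand of the gene, with TTGAC or its reverse complement GTCAA in capitals.
RLP41, chr3:9112937-9113186, minus strand: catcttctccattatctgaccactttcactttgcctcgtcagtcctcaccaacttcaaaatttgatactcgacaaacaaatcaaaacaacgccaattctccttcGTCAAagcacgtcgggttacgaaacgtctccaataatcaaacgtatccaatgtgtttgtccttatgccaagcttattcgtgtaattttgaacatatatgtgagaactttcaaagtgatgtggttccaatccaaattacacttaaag
CRK4, chr3:16866262-16866511, minus strand: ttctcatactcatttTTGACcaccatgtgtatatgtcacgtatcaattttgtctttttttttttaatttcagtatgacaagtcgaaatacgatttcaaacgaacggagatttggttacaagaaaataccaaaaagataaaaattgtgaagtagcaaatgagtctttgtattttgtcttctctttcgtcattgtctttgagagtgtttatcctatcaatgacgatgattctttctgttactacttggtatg
HR4, chr3:18732771-18733020, plus strand: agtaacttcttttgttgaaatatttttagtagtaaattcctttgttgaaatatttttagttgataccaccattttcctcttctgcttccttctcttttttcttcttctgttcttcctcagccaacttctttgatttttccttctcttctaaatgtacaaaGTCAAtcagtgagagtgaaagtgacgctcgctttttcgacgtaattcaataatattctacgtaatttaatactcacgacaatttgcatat
RING1, chr5:3267385-3267634, plus strand: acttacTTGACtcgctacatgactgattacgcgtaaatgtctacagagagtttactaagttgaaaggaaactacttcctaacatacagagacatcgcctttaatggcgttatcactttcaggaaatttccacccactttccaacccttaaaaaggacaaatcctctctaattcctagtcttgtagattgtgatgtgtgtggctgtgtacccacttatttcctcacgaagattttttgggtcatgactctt
AT3G04210, chr3:1108253-1108502, minus strand: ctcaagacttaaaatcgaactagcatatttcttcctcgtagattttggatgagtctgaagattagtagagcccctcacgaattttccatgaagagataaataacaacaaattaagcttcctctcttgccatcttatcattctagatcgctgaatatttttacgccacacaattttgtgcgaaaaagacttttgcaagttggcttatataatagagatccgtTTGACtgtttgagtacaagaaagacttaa
AT2G39870, chr2:16643131-16643380, plus strand: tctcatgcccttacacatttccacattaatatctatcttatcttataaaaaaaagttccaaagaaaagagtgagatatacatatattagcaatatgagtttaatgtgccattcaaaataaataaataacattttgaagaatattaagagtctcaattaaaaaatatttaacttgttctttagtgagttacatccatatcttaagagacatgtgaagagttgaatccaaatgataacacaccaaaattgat

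In these windows the core lay at -235 from the start in CRK4 on the strand of the gene, and on the other strand at -146 in RLP41 and -90 in HR4. RING1 had it at -244 and AT3G04210 at -29. The windows of AED1 (AT5G10760), SNC4 and AT1G61300, members that are also linked to immunity, held no match. All 24 members have such a window in the annotation, and 13 of them, 54.2%, held at least 1 TTGAC on either strand, against 44.2% of 10285 loci at 10 CPM or more and 44.7% of 26029 loci in all. A second or further core was present in 2 members, AT1G13750 at -66 and -51 and AT5G44568 at -68 and -10, against 13.5% of the 10285. A match describes the letters of a window and not binding by a factor. Of 16 motifs searched on both strands, the heat shock pattern GAANNTTC stood farthest above its share elsewhere, in 6 members or 25% against 8.96% of the 10285, namely AT3G04210, RING1, AT5G18470, AT1G76700, RLP41 and COBL5. The G-box CACGTG was in 2 members, FRO6 and NP3, at 8.33% against 7.31%. The GCC-box GCCGCC and the telo-box AAACCCTA were in none of the 24, but also in only 1.87% and 3.72% of the 10285.

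PR1 (AT2G14610, TAIR10.1 chromosome 2, 6241640 to 6242541, minus strand, 1 exon) had 18, 9, 189 and 189 counts in cores 1 to 4. On the CPM scale these are 2.45, 1.38, 29.0 and 35.4. Cores 3 and 4 lay far above the other cores, and their own difference was within counting error, with core 3 over core 4 at 0.82 (95% exact interval 0.666 to 1.01). The lower of cores 3 and 4 was 11.8 times the higher of cores 1 and 2 (95% exact interval 7.28 to 20.4). Intervals here and below come from the counts of 1 pair of libraries and cover counting error only.

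AED1 (AT5G10760, chromosome 5, 3400322 to 3402389) encodes an aspartyl protease of the apoplast that has been linked to systemic acquired resistance. It had 38.0, 23.99, 87.8 and 99.7 CPM in cores 1 to 4, a ratio of 2.31. Among the members its level per length was the highest, at 31.7 CPM per kb of exon. AT5G10770, the next gene on the chromosome and the closest in sequence to AED1, went the other way, with 99.8, 129.6, 9.81 and 19.1 CPM. The pair shares 71.9% identity over 818 aligned bases, and both are on the minus strand. Cores 3 and 4 were thus the higher cores for AED1 and the lower ones for its neighbour.

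RING1 (AT5G10380, chromosome 5, 3267635 to 3268813), a RING-type ubiquitin ligase known to be needed for toxin-induced programmed cell death, had 18.0, 18.8, 45.1 and 40.0 CPM. HR4 (AT3G50480, chromosome 3, 18733021 to 18734420) is a homologue of the powdery mildew resistance gene RPW8 and had 4.22, 7.53, 47.1 and 21.7 CPM. Core 3 exceeded core 4 by 2.17-fold in HR4 (95% exact interval 1.75 to 2.71), while RING1 was even within each pair of cores. HR3, the neighbour of HR4 with 73.4% identity over 143 bases, had 13.9, 8.15, 9.50 and 26.7 CPM, so that its core 3 lay below core 1.

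Among surface receptors, RLP41 (AT3G25010, chromosome 3, 9110057 to 9112936), a receptor-like protein without a kinase domain, had 4.49, 2.00, 24.7 and 18.9 CPM and a ratio of 4.2. SNC4 (AT1G66980, chromosome 1, 24997223 to 25002239), a receptor-like kinase in which a gain-of-function mutation turns on immune responses, had 5.18, 6.77, 35.4 and 26.9 CPM and a ratio of 3.98. CRK4 (AT3G45860, chromosome 3, 16863088 to 16866261), a cysteine-rich receptor-like kinase, had 5.31, 5.69, 24.1 and 17.58 CPM and a ratio of 3.09. In these 3 genes cores 3 and 4 were within 1.5-fold of each other and above both other cores. SNC4 has 1 other locus with at least 90% identity and RLP41 has 2, so part of their reads may belong to copies. The lectin gene AT5G18470 had 10.08, 9.07, 21.2 and 20.9 CPM, the smallest ratio of the set at 2.08. Genes of the opposite strand cover 73.9% of its exons, so its counts are uncertain. The long noncoding RNA AT5G02895, for which the deposited counts hold no value, shares 1169 bases with it, and the pentatricopeptide gene AT5G18475 shares 49. AT5G18475 had 29, 28, 32 and 27 counts.

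The nucleotide-binding resistance genes in the set were AT3G04210 and AT1G61300. AT3G04210 (chromosome 3, 1105650 to 1108252), which has a TIR and a nucleotide-binding domain in its annotation, was the most abundant member by mean CPM, with 39.4, 32.1, 91.5 and 88.5 CPM. AT1G61300 (chromosome 1, 22607462 to 22610557), annotated with a nucleotide-binding domain and leucine-rich repeats, had 11.3, 10.9, 24.5 and 24.7 CPM. In both genes cores 3 and 4 were nearly equal and lay above both other cores. AT1G61300 has 3 other loci with at least 90% identity, of which AT1G61180 with 92.4% over 2575 bases had 0 counts in every core, and the split of reads among such copies is uncertain.

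**Figure D1:**
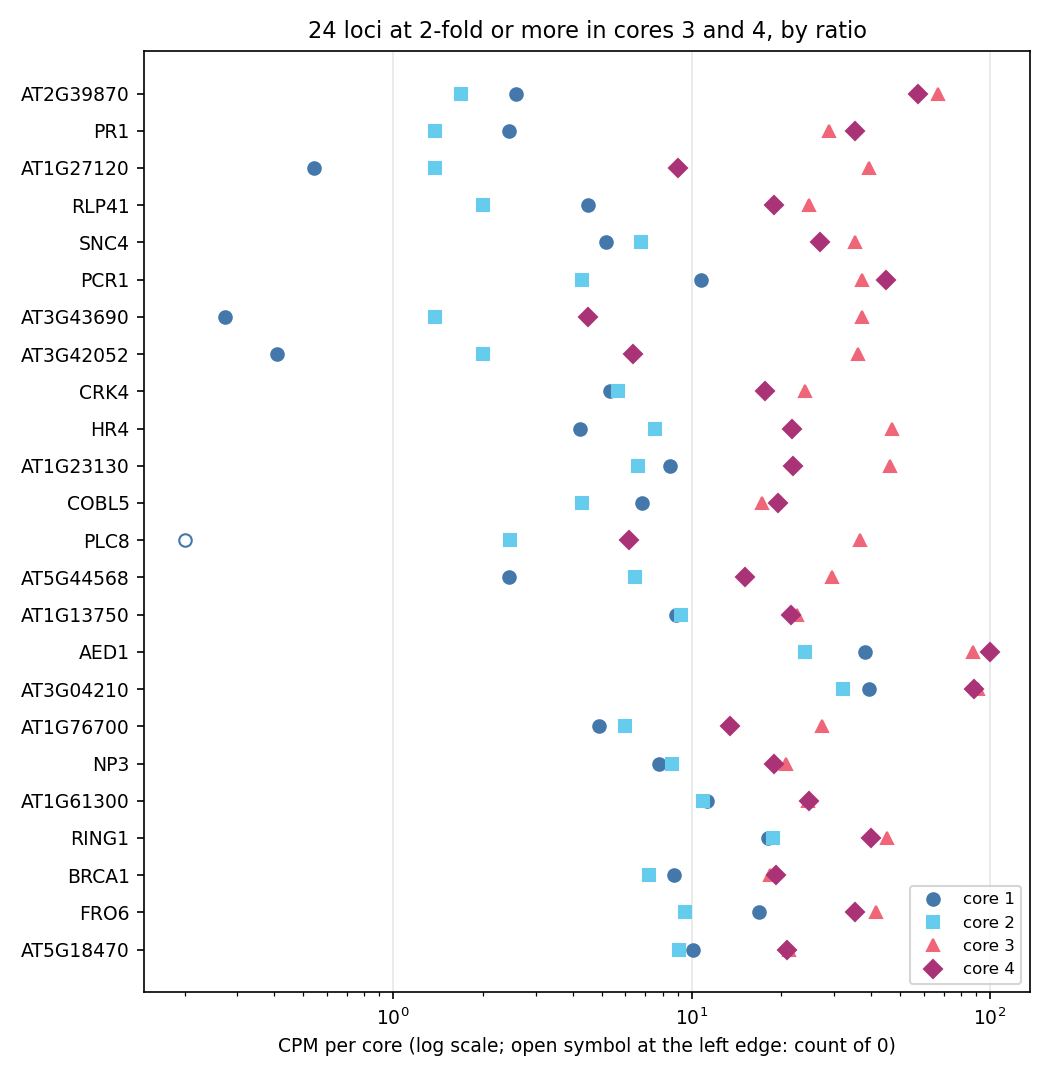
CPM of each of the 24 members in cores 1 to 4 on a log axis, ordered by the ratio of the lower of cores 3 and 4 to the higher of cores 1 and 2; each symbol is 1 library, and the open symbol is the count of 0 for PLC8 in core 1. AT2G39870 and PR1 have the widest gaps, and in PLC8, AT3G42052, AT3G43690 and AT1G27120 core 4 lies far below core 3.

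NP3 (AT3G06030, chromosome 3, 1818732 to 1822858), a MAP kinase kinase kinase of the ANP family known from cell division and immune signalling, had 7.76, 8.61, 20.7 and 18.9 CPM. BRCA1 (AT4G21070, chromosome 4, 11247991 to 11252757), the plant homologue of a human DNA repair gene, had 8.72, 7.23, 18.4 and 19.3 CPM. It was the only member on chromosome 4. The DnaJ-type co-chaperone gene AT1G76700 had 4.90, 5.997, 27.3 and 13.5 CPM, with core 3 at 2.03 times core 4.

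Among metal and phosphate genes, FRO6 (AT5G49730, chromosome 5, 20201037 to 20204595), a ferric chelate reductase of shoots, had 16.9, 9.53, 41.5 and 35.4 CPM. Its neighbour and near copy FRO7, with 93.1% identity over 2063 bases, had 9.12, 9.23, 17.2 and 15.9 CPM. Cores 3 and 4 were the higher ones in both genes, and reads may have been split between them. PCR1 (AT1G14880, chromosome 1, 5132506 to 5133860), a membrane protein that lowers cadmium uptake, had 10.8, 4.31, 37.4 and 44.7 CPM and a ratio of 3.48. The purple acid phosphatase gene AT1G13750 had 8.85, 9.23, 22.5 and 21.5 CPM, with even values within each pair.

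COBL5 (AT5G60950), of the COBRA-like family known from cell wall assembly, had 6.81, 4.31, 17.2 and 19.4 CPM. AT1G23130, annotated as a polyketide cyclase and lipid transport protein, had 8.44, 6.61, 46.3 and 21.9 CPM. Its neighbour AT1G23120 had 11.0, 9.53, 3.22 and 3.74 CPM, lower in cores 3 and 4. The uncharacterized gene AT5G44568 had 2.45, 6.46, 29.6 and 15.1 CPM. The noncoding RNA locus AT5G44569 beside it had 0, 1, 32 and 3 counts.

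The largest ratio belonged to AT2G39870 (chromosome 2, 16643381 to 16645866, plus strand, 4 exons), which the annotation lists as an uncharacterized protein. It had 19, 11, 438 and 307 counts, or 2.59, 1.69, 67.1 and 57.4 CPM. Cores 3 and 4 differed by 1.17-fold, and the lower of them was 22.2 times the higher of cores 1 and 2 (95% exact interval 13.97 to 37.4). The gene closest to it in sequence, AT3G55690 with 75.4% identity over 175 bases, had 156, 120, 161 and 146 counts. MYB25, its neighbour on the right, had 14.03, 10.9, 11.2 and 12.7 CPM. The cores of MYB25 overlapped, and the counts of AT3G55690 showed no gap of the size seen in AT2G39870.

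In 4 members core 3 stood far above core 4, which lay between core 3 and the other cores. AT1G27120 (chromosome 1, 9421009 to 9424084), a galactosyltransferase gene, had 4, 9, 256 and 48 counts. PLC8 (AT3G47290, chromosome 3, 17420397 to 17424342), annotated as a phosphoinositide phospholipase C, had 0, 16, 239 and 33 counts. The pseudogenes AT3G42052 and AT3G43690, both on chromosome 3, had 3, 13, 235 and 34 counts and 2, 9, 243 and 24 counts. Core 3 was 4.37, 5.94, 5.66 and 8.30 times core 4 in these genes, in the order named, with every 95% exact interval above 3. In all 4 genes core 2 had more counts than core 1. The 0 of PLC8 in core 1 allows up to 0.409 CPM at 3 counts. AT3G42052 has 6 other loci at 90% identity or more and spans 7144 bases in 1 exon, and PLC8 has 1 such locus. A search made after these values were seen found 34 further loci with a like profile, most of them below the floor of the rule. Whether core 3 differed from the other cores in genotype or held other material was not tested. This bears on the core 3 values of all 24 members and not only of these 4.

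**Figure D2:**
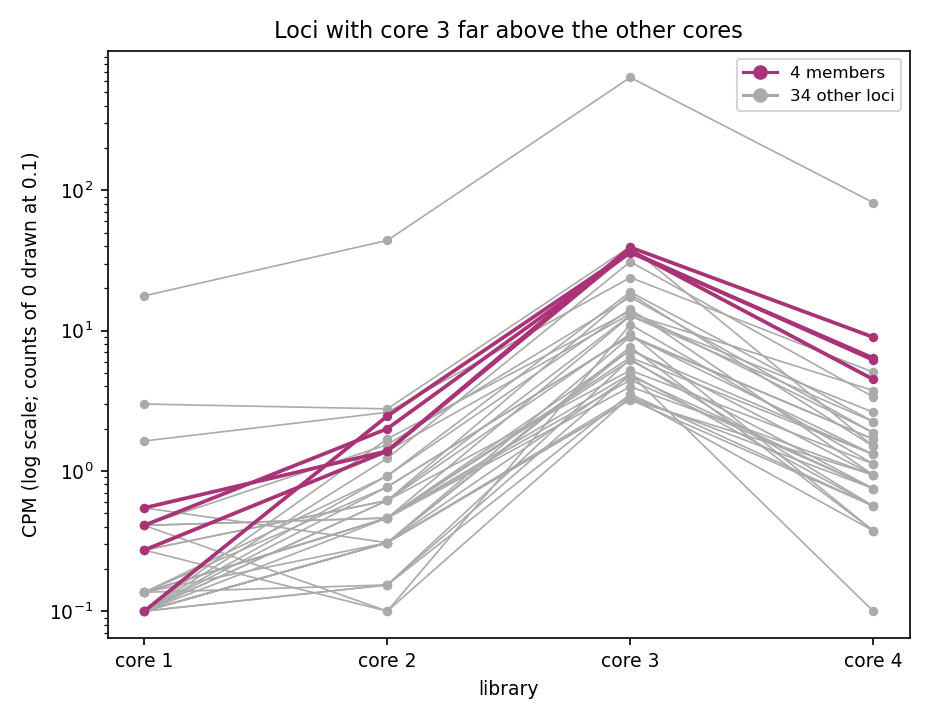
CPM in cores 1 to 4 (log axis, counts of 0 drawn at 0.1) of 38 loci with core 3 at least 3 times core 4 and at least 8 times the higher of cores 1 and 2, at a mean of 1 CPM or more. Each line is 1 locus, and the 4 members (AT1G27120, PLC8, AT3G42052 and AT3G43690) are drawn in purple among the 34 others in grey.

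**Figure D3:**
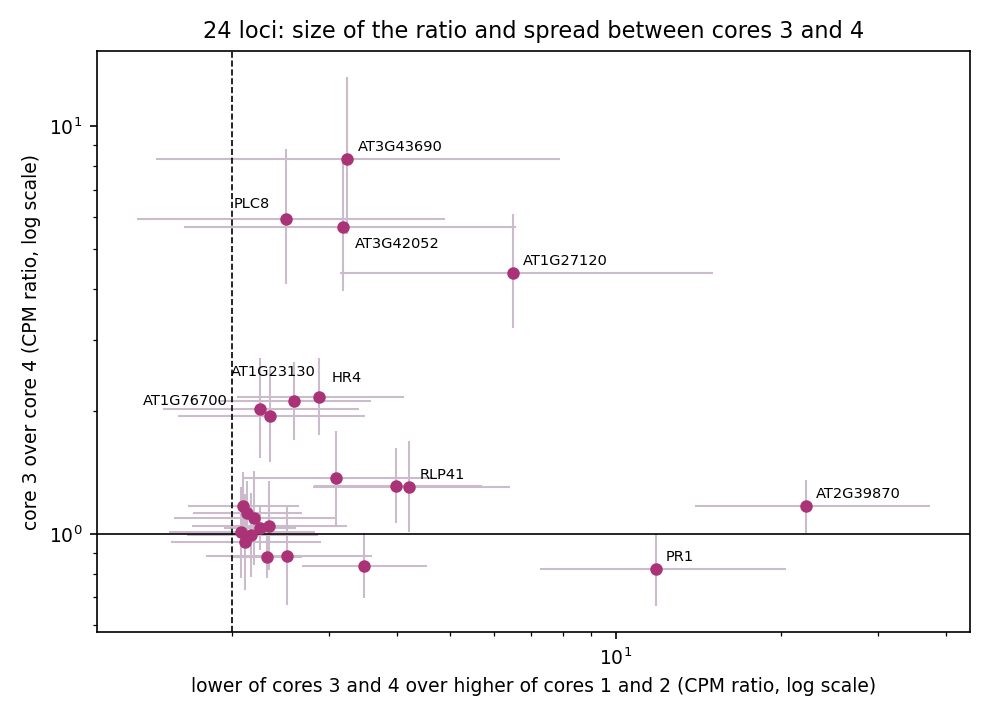
Ratio of the lower of cores 3 and 4 to the higher of cores 1 and 2 (x, log axis) against core 3 over core 4 (y, log axis) for the 24 members; bars are 95% exact counting intervals, the dashed line is the 2-fold rule and the solid line is equality of cores 3 and 4. Most members lie near equality, and 4 of them have core 3 at more than 3 times core 4.

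Over the whole set the ratio had a median of 2.52 and a range from 2.08 to 22.2, with 11 members under 2.5, 9 above 3 and 2 above 10. The counting interval of the ratio reached below 2 in 15 members. Just inside the rule stood AT5G18470 at 2.08, FRO6 at 2.09 and BRCA1 at 2.11, and just outside it RBCS2B, which encodes a small subunit of Rubisco, at 1.965, AT1G77550 at 1.98 and AT3G56160 at 1.99. In all, 17 loci had a ratio between 1.8 and 2. Core 3 was higher than core 4 in 18 members and lower in 6, and these cores were within 1.5-fold in 16. Core 3 exceeded core 4 by more than 1.5-fold in 8, and the reverse in 0. Cores 1 and 2 were each the higher one in 12. The summed CPM of the set was 217.8, 189.5, 907.5 and 687.4 in cores 1 to 4.

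The count of loci changed with each library left out. With the rule applied without core 1 it gave 114 loci, without core 2 it gave 37 and without core 4 it gave 85, and 24, 24 and 23 of the members were among them. Without core 3 it gave 31 loci, which held 16 of the 24 members. Leaving out a core can only loosen the fold for a member. The members lost therefore had a mean below 10 CPM over the cores left, and their retention is no support for the fold.

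The members were low to moderate in level. Their mean CPM ran from 10.9 to 62.9 with a median of 15.4, against a median of 40.6 over the 10291 loci, of which 3442 or 33.4% lay above the highest member. The mirror set had a median of 28.9 and a maximum of 854.3 CPM. A further 389 loci passed the fold below the floor, the most abundant of them the pseudogene AT3G28160 at a mean of 8.89 CPM, BCS1 at 8.67 and AT5G54710 at 8.02. Of features the rule did not use, median exon length was 2248.5 bases in the set and 1776 in the background, the median number of exons 3.5 and 4, and median GC content 40.5 and 41.5%. Overlap with opposite-strand exons above 20% was found in 1 member, 4.17%, against 9.02% of the background. Chromosomes 1 to 5 held 7, 2, 8, 1 and 6 members, against 2675, 1557, 2060, 1559 and 2435 of the 10291 loci. No members were next to each other or aligned to each other, but 6 have another locus with at least 90% identity over 100 bases or more.

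The 48 direct neighbours of the members gave no second member. Of the 18 neighbours at 10 CPM or more, 5 had both of cores 3 and 4 above both of cores 1 and 2, and 6 had them below. Over all 10291 loci the shares were 28.1% and 29.2%, so these counts of neighbours are close to the background. AFP2, beside AT1G13750, had 56.1, 58.4, 30.8 and 37.6 CPM.

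The salicylic acid and immune list of known response genes had 22 loci with 1 model, of which 12 reached 10 CPM. Of these 12, 1 was a member, PR1, while members made up 0.233% of all 10291 loci. Beside PR1, genes for the glucanase PR2 and the receptor-like protein RLP23 came close to the rule. PR2 had 21.5, 11.7, 54.3 and 41.3 CPM, a ratio of 1.92, and RLP23 had 9.80, 4.61, 26.2 and 18.9 CPM, a ratio of 1.93. PAD3, an enzyme of camalexin synthesis, had 3.27, 1.54, 9.35 and 6.92 CPM, a ratio of 2.12 at a mean below the floor. PNP-A had 5.86, 2.77, 11.0 and 16.8 CPM. PR5 had 67.1, 31.1, 74.4 and 98.0 CPM, a ratio of 1.11. The chitinase gene PR3 went against these, with 61.3, 60.6, 17.3 and 64.3 CPM and its lowest value in core 3.

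Other genes of the list encode regulators of the response, and some of them are given here. WRKY70, the most abundant gene of the list, had 184.3, 124.3, 129.4 and 215.8 CPM, and WRKY54 had 38.1, 23.2, 24.5 and 50.9 CPM, with cores 1 and 4 as the higher ones in both. PAD4 had 47.7, 46.8, 40.0 and 53.1 CPM and the salicylic acid receptor NPR1 had 50.5, 51.8, 51.8 and 60.2 CPM, so their cores overlapped. WRKY46, at a mean below the floor, had 2.86, 4.00, 5.37 and 5.24 CPM, with both of cores 3 and 4 above the others. Also below the floor, WRKY38 had 5.45, 2.31, 3.68 and 10.29 CPM and NIMIN1 had 6.13, 4.31, 3.68 and 7.11 CPM. In both, core 4 was the highest and core 3 lay below core 1. WRKY53, above the floor, had 28.2, 27.1, 25.6 and 24.9 CPM, with both of cores 3 and 4 below the others. Over the 12 loci, 5 had both of cores 3 and 4 above both of cores 1 and 2, 1 had them below, and the median log2 difference of the pair means was 0.17. The same share over all 10291 loci was 28.1% above and 29.2% below, with a median of 0.01. Without core 4 the median of the list was -0.01. PR2, RLP23, PAD3, PNP-A, WRKY46, WRKY54, PAD4, WRKY38, NIMIN1 and WRKY53 were chosen after their values were seen.

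**Figure D4:**
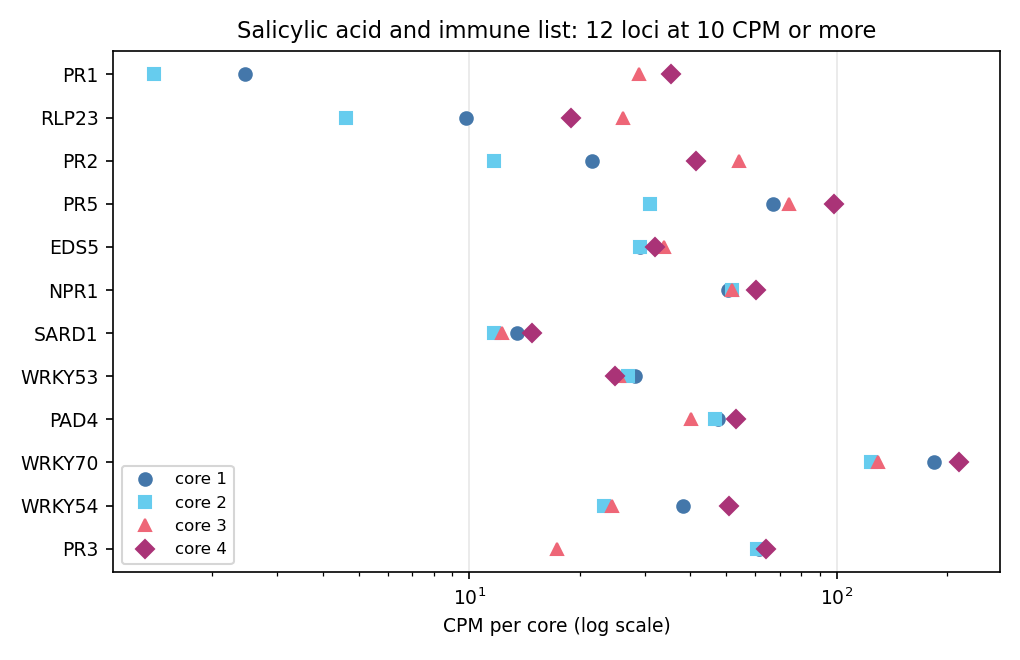
CPM in cores 1 to 4 (log axis, 1 symbol per library) of the 12 loci of the salicylic acid and immune list at 10 CPM or more, ordered by ratio. PR1, RLP23 and PR2 have cores 3 and 4 on the right of cores 1 and 2, whereas in WRKY70, WRKY54 and PAD4 the cores overlap.

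The nucleotide-binding resistance genes were also examined as a class. Of 48 at 10 CPM or more, 2 were members, 4.17%, against 0.233% of all 10291 loci. Both of cores 3 and 4 lay above both of cores 1 and 2 in 27, or 56.25%, against 28.1% of all loci. They lay below in 4, or 8.33%, against 29.2%. The class had a median log2 difference of 0.33, against 0.01 over all loci. Without 1 core at a time, an alternative added after the data were seen, it was 0.24, 0.43, 0.19 and 0.42 without cores 1 to 4, the lowest without core 3. The median over all loci was then -0.04, 0.04, -0.01 and 0.01. RPP13, the most abundant of the class, had 61.0, 68.7, 93.0 and 80.4 CPM, and SNC1, whose activated allele gives constitutive immunity, had 49.8, 57.8, 85.4 and 67.1 CPM. RPM1, a receptor for bacterial effectors, had 10.8, 9.995, 19.5 and 18.9 CPM, a ratio of 1.76, and was chosen after its values were seen. Receptor-like kinases had 1 member by this product text among 133, 0.752%, with 41 above and 20 below and a median of 0.14. Their share above, 30.8%, was close to the 28.1% over all loci. Their share below, 15.04%, was smaller than the 29.2% over all loci. Pentatricopeptide genes of organelle RNA processing, with no member, had 49 of 100 above and 6 below, so a larger share above than all loci was not found in immune classes alone.

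**Figure D5:**
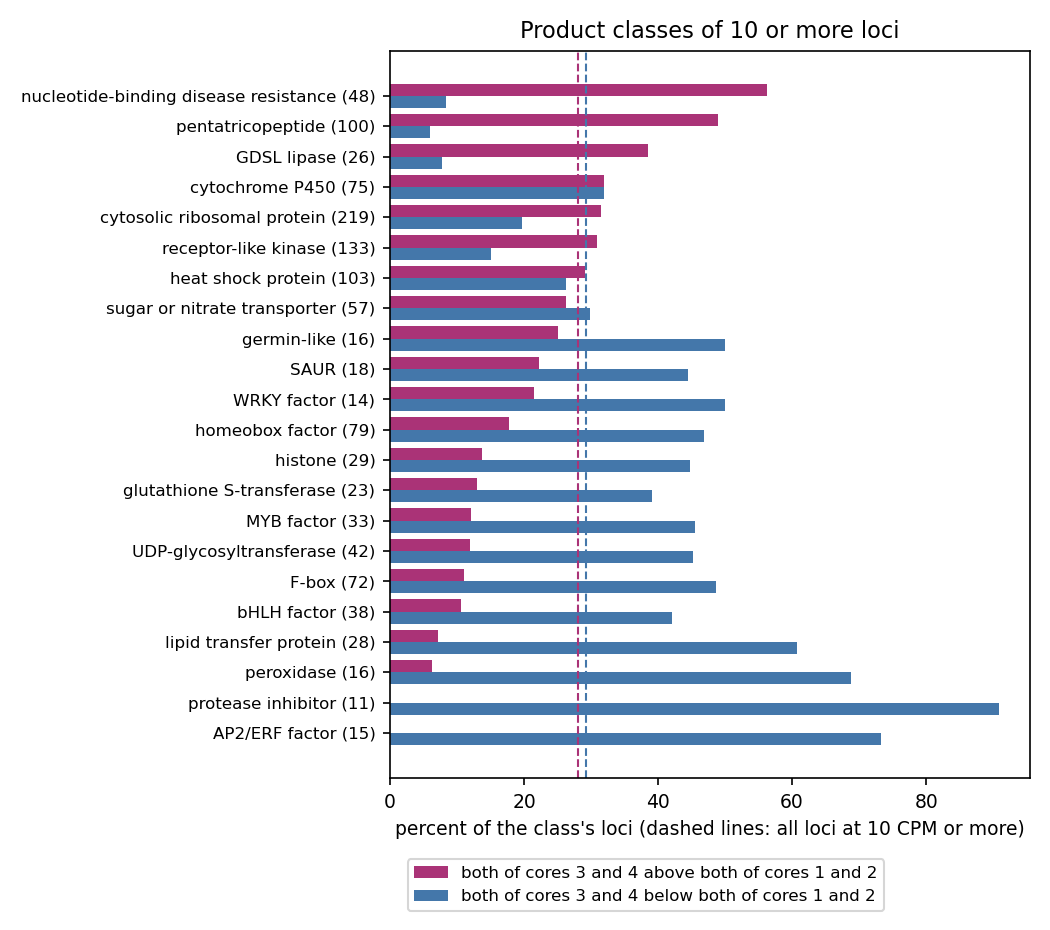
Percent of loci at 10 CPM or more in each product class with both of cores 3 and 4 above both of cores 1 and 2 (upper bar) or below both (lower bar); numbers in brackets are loci, and dashed lines mark 28.1% and 29.2% over all 10291 loci. The nucleotide-binding class has 27 of 48 above and the pentatricopeptide class 49 of 100.

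Other measures differed between the cores in the same samples. Library totals were 5639486 to 7692788 counts, and organelle loci took 2.94, 3.09, 5.15 and 3.57% of the counts in cores 1 to 4, the highest share in core 3. The correlation of log2 CPM between libraries was 0.977 for cores 1 and 2, 0.968 for cores 3 and 4, and 0.908 to 0.963 for the other pairs, over loci that share these libraries. Of 3 meristem markers found, the summed level was 341.1, 630.0, 197.9 and 274.0 CPM, most of it from STM and KNAT1. The 2 mesophyll markers had 30629, 22195, 29662 and 23124 CPM, most of it from LHCB1.3, so the labelled tissue was present by both. Single markers differed. CUC2, at 3.81, 3.69, 4.905 and 5.05 CPM, and LHCB6, at 2836, 2108, 3980 and 3287 CPM, had both of cores 3 and 4 above the others. STM and KNAT1 had them below, and the cores of LHCB1.3 overlapped. The photosystem list, with no member, had 14 of 22 loci above and 0 below, against 28.1% and 29.2% over all loci. With TMM and median-of-ratios scaling of the libraries, 11 and 12 of the 22 were above. The 6 root markers summed to 163.2, 199.3, 110.5 and 135.6 CPM, most of it from PHO1 and SCR, while EXPA7 was at 0 in every core. The 3 pollen markers summed to 17.0, 21.4, 29.0 and 21.0 CPM, most of it from ANX1, with VGDH1 at 0. The 2 seed markers summed to 0.307 to 2.77 CPM, with SESA4 at 0. The part of these differences in the counts of the 24 genes was not tested.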

How the data were processed

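RNA-seq libraries of 4 rosette cores, in 1 group, were analysed from the deposited table. Per the labels' protocols, total RNA was depleted of ribosomal RNA, ligated to strand-specific adapters and sequenced on an Ion Proton with Torrent Suite 4.0.2. HTSeq and TAIR10 come from the submitters' processing notes. For the aligner and the counting settings, nothing is given in the sources used here. The authors deposited raw counts, whole numbers with 1 row per transcript model, without normalization.

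From these counts, CPM were computed over 26516 nuclear loci with 1 model. Loci with several models entered only an alternative, as sums of their rows. Totals over all rows were 5639486 to 7692788. Those over the loci used for CPM were 5346608 to 7342880, so that 1 count equals 0.136 to 0.187 CPM. No test between cores was run, as the rule chose the loci from the same 4 libraries, and Dixon's ratio served only to mark values. Ratios have 95% exact intervals from binomial counts. The log2 difference of pair means adds 0.5 CPM. Loci with mean CPM below 10 were not members.

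Gene names, coordinates (1-based) and promoters come from the RefSeq annotation of TAIR10.1. The promoter of 1 member is not reported here. Copies were sought with BLAST 2.17.0 (e-value limit 1e-10, at least 100 aligned bases). Other scalings used edgeR 4.0.16 and DESeq2 1.42.0 for size factors only, in R 4.3.3. On simulated data of 26516 loci, the rule recovered 50 of 50 loci raised 3-fold, 50 of 50 raised 8-fold, 0 of 50 raised 2-fold and 0 of 50 raised 1.5-fold. The simulated counts had Poisson error only, without other variation between cores. Only loci at 20 CPM or more were raised, a mean that 8 of the members reach. The simulation therefore checks the arithmetic of the rule and not its error rate in these data.

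The members, the lists and the classes were chosen with earlier results of these data known. List symbols with more than 1 meaning were dropped after values were seen. Named are the 15 members of highest mean CPM, the 15 of largest ratio, up to 4 genes of highest mean CPM per list or class, neighbours and the 3 loci on either side of the 2-fold limit. The members so named were all 24, and other genes named beside them, neighbours and copies among them, were picked once their values had been seen.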

Additional observations from a re-analysis of the deposited data

Results flagged for a closer look

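For each of the 24 members, the gap between the highest or lowest core and the nearest other core was divided by the range over the 4 cores. Dixon's 95% critical value for 4 samples was passed by 3 of them, in each case through core 3. Core 3 had 36.6 CPM for PLC8, where the gap was 0.832 of the range. It had 36.0 CPM for the pseudogene AT3G42052, with 0.833, and 37.25 CPM for the pseudogene AT3G43690, with 0.886. Chance flags about 1 in 20 such groups, and the members were chosen for values that differ between cores. Library totals, organelle shares and the summed CPM of the members did not pass this limit.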

How the results depend on the processing

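The count of 24 loci was 25 with TMM scaling, 26 with median-of-ratios scaling, 24 with totals over all rows and 25 with model rows summed, each holding all 24 members. It was 22 for protein-coding genes, 23 without loci of opposite-strand overlap and 36 with a floor of 5 CPM. Added after seeing the data, it was 18 without loci that have a copy at 90% identity and 20 without those whose cores 3 and 4 differ over 3-fold. It moved to 8 with a floor of 20 CPM, 413 with no floor, 125 at 1.5-fold, 9 at 3-fold and 72 with means of the 2 libraries of each pair. Leaving out 1 core gave 31 to 114 loci. The 104 loci higher in cores 1 and 2 became 63, 998, 376, 21 and 309 under the same settings, and 89 to 377 without 1 core. The cause was not tested, though a lower floor or fold admits more loci by construction, and leaving out a core loosens the fold. Every member's ratio stayed at 2 or more with both other scalings (lowest 2.03). Of 180 recomputed list medians, 22 changed sign. No paired analysis was possible because the 4 libraries form 1 group. Depth limits how firmly a member lies past the rule: in 15 of 24 the counting interval of the ratio includes values under 2, also in the most abundant member, AT3G04210.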

Other observations

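The 4 members in which core 3 stood far above core 4 shared this profile with other loci. A search made after seeing their values took loci with a mean of at least 1 CPM, core 3 at least 3 times core 4 and at least 8 times the higher of cores 1 and 2. It found 38 of 14192 loci, 0.268%, of which 4 are members. With cores 3 and 4 exchanged, the same search found 1 locus. Core 2 was above core 1 in 34 of the 38, and core 4 above both cores 1 and 2 in 35. Neither share was computed over the 14192 loci, so there is nothing here to judge these counts by. In the 4 members core 4 lies above cores 1 and 2 by the rule that chose them. Pseudogenes and noncoding RNA loci made up 15 of the 38, or 39.5%, against 2.97% of the 14192. The search asks for core 3 far above cores 1 and 2, which admits loci near 0 in those cores. The 14192 loci were not matched to the 38 in that level, so the shares are a description only. Chromosome 3 held 16 of the 38 (42.1%, against 20.1% of all), chromosome 5 held 10, chromosome 1 held 8, chromosome 4 held 4 and chromosome 2 held 0.

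The most abundant of these loci was AT3G01345, an uncharacterized gene with 130, 286, 4164 and 437 counts in cores 1 to 4, which failed the 2-fold rule because core 4 was 1.86 times core 2. AT3G28160, a pseudogene, had 0, 8, 202 and 18 counts. The hydroxysteroid dehydrogenase gene HSD3 had 1, 3, 42 and 7 counts, and the resistance gene AT5G46510 had 3, 10, 113 and 10. The peroxidase gene PER64 met the search with 22, 18, 259 and 8 counts, but its core 4 was below both cores 1 and 2. All of these loci were chosen after their values were seen, and whether core 3 differed in genotype or held other material was not tested.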
